A study of Mus musculus with 16 samples.

Results

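T cells carry receptors that sense antigen through a pair of variable chains, either alpha and beta or gamma and delta, and both kinds of receptor signal through the same CD3 chains. Here the messenger RNA of 10 genes of these cells was followed in the ear skin of ageing mice: Trdc, which encodes the constant region of the delta chain, the CD3 chain genes Cd3d, Cd3e, Cd3g and Cd247, the adhesion receptor gene Cd2, the inhibitory surface receptor gene Cd5, the kinase gene Lck, which starts the signal of the receptor, and the coreceptor genes Cd4 and Cd8a, which divide alpha-beta T cells into helper and cytotoxic cells. The genes were taken by symbol from a list of T cell genes, with no threshold on their values, though with earlier results of these data known. They are 10 of the 45706 genes in the deposited table, and all 10 had enough reads to enter the test.

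The samples were ear clips of 8 male mice of the inbred strain C57BL/6J, with no treatment or genetic change given in the labels. One ear was sampled at 24 months and the opposite ear at 30 months, so each mouse is its own control and the 16 libraries form 8 pairs. The exact ages in the labels were 23.8 to 24.4 months for the first clip and 29.0 to 30.1 months for the second. Age, the ear taken and the time of sampling changed together and cannot be told apart. The mice are named by their numbers in the labels (13, 14, 21, 29, 43, 50, 64 and 75).

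Mouse epidermis is unusual in that its resident T cells are mostly gamma-delta cells, the dendritic epidermal T cells, which are seeded before birth and carry a receptor that hardly varies from cell to cell. Its variable segments are those of Tcrg-V5 and Trdv4. Alpha-beta T cells are also found in the skin, as CD4 cells or as resident memory CD8 cells, and can enter it from the blood. The Skint genes of keratinocytes encode surface proteins, of which Skint1 is needed for dendritic epidermal T cells to develop. Trdc reads therefore stand for gamma-delta cells, those of Cd4, Cd8a and Trac (the alpha constant gene) mainly for alpha-beta cells, and those of the CD3 chains for both. In bulk tissue, fewer cells of a type and less RNA per cell cannot be told apart, and Cd4 is also made by some myeloid cells.

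Trdc lies on chromosome 14 (chr14:54142851-54148868, plus strand, GRCm38, GENCODE M21), inside the locus of the alpha chain. Its first coding exon and that of Trac are shown because the contrast of gamma-delta and alpha-beta cells rests on telling these constant genes apart. Each line gives the first 120 bases of the transcript, of which all are coding, 5′ to 3′ (chr14:54142851-54142970 for Trdc and chr14:54220521-54220640 for Trac, both on the plus strand).
Trdc: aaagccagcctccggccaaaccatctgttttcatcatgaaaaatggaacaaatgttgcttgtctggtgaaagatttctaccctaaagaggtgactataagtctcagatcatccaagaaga
Trac: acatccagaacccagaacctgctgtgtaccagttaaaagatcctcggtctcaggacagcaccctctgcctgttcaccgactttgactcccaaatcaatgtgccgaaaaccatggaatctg
Reads were 50 nt long, and 0 of the 50-base windows of the Trdc transcript occurred in that of Trac, so that no full read from either transcript matches the other exactly. In the Trdc transcript 6.68% of the windows occurred in other genes. For Cd247 this share was 84.0% of the longest transcript, since its end overlaps Pou2f1 and Gm16565, and its level is uncertain for that reason. The share was at most 0.319% for the other 8 genes. Trbc1 and Trbc2, the beta constant genes, shared 41.1% and 44.0% of their windows with each other and their split is uncertain.

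The CD3 genes Cd3g, Cd3d and Cd3e are neighbours on chromosome 9. Cd3g (chr9:44969572-44980431, minus strand) and Cd3d (chr9:44981786-44987339, plus strand) point away from each other with 1355 bases between their starts, and Cd3e (chr9:44998740-45009627, minus strand) follows. Cd8a lies on chromosome 6 (chr6:71373427-71379173, plus strand). The promoters of these 4 genes are shown because all 4 genes had their highest level in the same library, described below, while Trdc did not. Each covers 250 bases before to 50 after the start in the RefSeq table (GRCm38.p6), which held promoters of 7 of the 10 genes. Capitals mark matches, on either strand, to 5 motifs of factor families that act in T cells. These are AGGAAG for ETS factors, TGTGGT for RUNX factors, AGATAA for GATA factors and CTTTGA for TCF and LEF factors. For the E-box, both CAGCTG and the related CAGGTG were taken.
Cd3g (chr9:44980382-44980681, minus strand): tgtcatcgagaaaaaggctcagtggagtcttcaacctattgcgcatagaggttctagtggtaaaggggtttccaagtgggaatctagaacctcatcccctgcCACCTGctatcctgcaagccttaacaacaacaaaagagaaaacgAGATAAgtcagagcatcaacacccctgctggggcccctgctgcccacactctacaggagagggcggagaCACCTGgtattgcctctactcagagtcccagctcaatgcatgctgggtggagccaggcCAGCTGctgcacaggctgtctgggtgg
Cd3d (chr9:44981536-44981835, plus strand): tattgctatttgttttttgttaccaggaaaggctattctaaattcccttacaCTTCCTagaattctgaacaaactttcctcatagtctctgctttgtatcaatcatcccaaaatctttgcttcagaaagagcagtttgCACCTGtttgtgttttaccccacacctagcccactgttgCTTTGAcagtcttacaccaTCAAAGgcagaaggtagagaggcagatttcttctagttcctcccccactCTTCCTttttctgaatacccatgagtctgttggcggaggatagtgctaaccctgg
Cd3e (chr9:45009562-45009861, minus strand): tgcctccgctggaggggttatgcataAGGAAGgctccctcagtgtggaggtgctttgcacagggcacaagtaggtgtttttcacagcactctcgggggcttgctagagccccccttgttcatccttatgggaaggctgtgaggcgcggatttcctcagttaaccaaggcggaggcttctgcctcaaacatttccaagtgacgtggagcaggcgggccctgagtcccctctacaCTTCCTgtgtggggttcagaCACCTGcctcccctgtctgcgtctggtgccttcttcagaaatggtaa
Cd8a (chr6:71373177-71373476, plus strand): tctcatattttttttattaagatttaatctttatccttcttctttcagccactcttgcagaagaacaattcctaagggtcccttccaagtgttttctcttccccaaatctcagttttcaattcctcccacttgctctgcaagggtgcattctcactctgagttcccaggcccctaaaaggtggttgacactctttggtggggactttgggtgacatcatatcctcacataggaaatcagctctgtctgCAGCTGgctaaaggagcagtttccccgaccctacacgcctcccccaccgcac
An E-box stood in all 8 promoters listed for the 7 genes (Lck has 2), against 32.9% of the 32851 promoters in the table, and the ETS letters in 6 of 8, against 35.4%. The RUNX letters were found in 1 of 8 (16.8% of all promoters), the GATA letters in 1 of 8 (11.2%) and the TCF/LEF letters in 2 of 8 (16.0%). These matches are letters only and say nothing of binding.

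Reads counted on genes numbered 22967222 to 36162431 in a library (median 28922265). The skin origin was plain from the keratin genes, since the sum of 6 keratinocyte markers was between 18134 and 28338 counts per 1000000 reads on genes (CPM) in every library. The 30-month library of mouse 50 stood apart for the T cell genes. It held the highest level of all 16 libraries for 9 of the 10 genes, against 12% of all 21526 genes tested, and was over 2-fold above the next library for 5 of the 10, against 2.31% of all genes. The changes with age are therefore given with all 8 mice and, for the 10 genes and for values that moved with this library, also without mouse 50.

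Per kilobase of exon, Trdc was the most abundant of the 10 genes at 24 months, at 4.69 ± 0.571 CPM per kilobase (RPKM, SD, n = 8 mice). Cd3g followed at 3.68 ± 0.50, Cd3d at 2.53 ± 0.535, Cd4 at 2.30 ± 0.508, Cd247 at 1.93 ± 0.225 and Cd3e at 1.88 ± 0.247 RPKM. The lower part of the order was Lck at 1.49 ± 0.142, Cd5 at 1.28 ± 0.155, Cd2 at 1.13 ± 0.249 and Cd8a at 0.0732 ± 0.0552 RPKM. The steps from Cd3d to Cd4, from Cd4 to Cd247, from Cd247 to Cd3e and from Cd5 to Cd2 were smaller than the larger of both SDs. The place of Cd247 in this order, also relative to Trdc, is uncertain, since 3213 of its 5329 exon bases are shared with other genes. Among genes outside the list, Trac was at 1.51 ± 0.415 RPKM and the gamma constant gene Tcrg-C1 at 10.5 ± 2.13 RPKM at 24 months.

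Trdc, the mark of gamma-delta cells, was lower at 30 than at 24 months in all 8 mice. At 24 months its level was 15.1 to 21.7 CPM (median 17.8) and at 30 months 8.07 to 18.9 CPM (median 14.5), so the ages overlapped while every pair pointed the same way. Mouse 29 changed most, from 20.8 to 8.07 CPM, and mouse 14 least, from 18.6 to 18.5 CPM. The pairs of the others were 15.1 and 14.3 (mouse 13), 16.6 and 14.7 (mouse 21), 16.98 and 14.2 (mouse 43), 18.6 and 13.98 (mouse 50), 21.7 and 18.9 (mouse 64) and 16.8 and 14.6 CPM (mouse 75). The log2 fold change was -0.33 (SE 0.137) and did not pass after adjustment over all genes (edgeR adjusted p = 0.379). The exact sign-flip test over the 8 mice gave p = 0.00781, the smallest value that 8 pairs allow, before any adjustment for the number of genes (11.7% of all genes had an exact p under 0.05). A lower level in every mouse was seen in 1 of the 10 T cell genes and in 1.69% of all genes tested, and a higher level in every mouse in 0 of the 10 and in 1.08% of all genes. Without mouse 50 the log2 fold change was -0.32 (edgeR adjusted p = 0.452), and without mouse 29 it was -0.19 (adjusted p = 0.462).

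**Figure D1:**
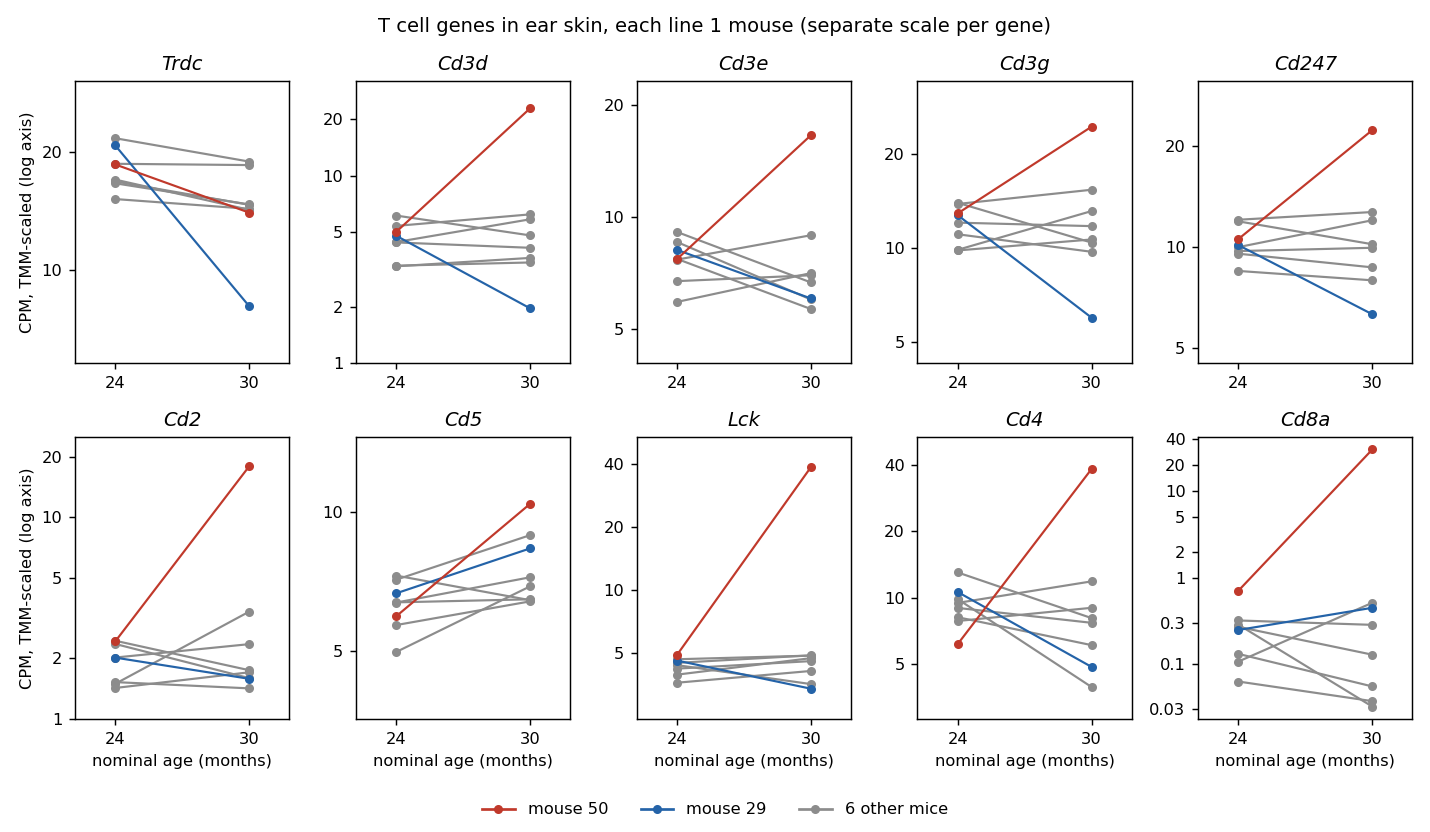
Level of the 10 T cell genes (CPM, log axis, separate scale per gene) at 24 and 30 months, with each line joining both libraries of 1 mouse (mouse 50 red, mouse 29 blue, the 6 others grey). Trdc is lower at 30 months on every line, from 20.8 to 8.07 CPM in mouse 29, while the 9 other genes reach their highest level in mouse 50 at 30 months.

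The CD3 chains, which both kinds of T cell need to place their receptor on the surface, had no common direction with all mice. Mouse 50 decided the sign for Cd3d and Cd247, and without it the log2 fold changes of all 4 chains were below 0. Without mouse 29 instead, all 4 were above 0, at 0.36 (Cd3d), 0.038 (Cd3e), 0.14 (Cd3g) and 0.15 (Cd247). Cd3d (delta chain) was at 3.285 to 6.12 CPM at 24 months (median 4.602) and at 1.965 to 22.7 CPM at 30 months (median 4.46), where the next highest library after mouse 50 was at 6.21 CPM. Cd3e (epsilon chain) was at 5.90 to 9.10 CPM (median 7.70) and then at 5.65 to 16.5 CPM (median 6.81). Cd3g (gamma chain) was at 9.83 to 13.97 CPM (median 12.4) and then at 6.00 to 24.4 CPM (median 11.2). The ages overlapped for each of these chains. Cd247 (zeta chain) was at 8.49 to 12.1 CPM (median 10.1) and then at 6.31 to 22.3 CPM (median 10.1). The log2 fold changes were 0.16 for Cd3d, -0.03 for Cd3e, -0.01 for Cd3g and 0.04 for Cd247 (edgeR adjusted p between 0.848 and 0.986). Without mouse 50 they were -0.12, -0.19, -0.14 and -0.11 (adjusted p between 0.594 and 0.818). Of the 8 mice, 3 were lower for Cd3d at 30 months and 4 for each of Cd3e, Cd3g and Cd247. In mouse 29, which had the steepest change of Trdc, all 4 chains were lower at 30 months, with changes of -1.24 (Cd3d), -0.43 (Cd3e), -1.08 (Cd3g) and -0.68 (Cd247) on the log2 scale. That library held the highest level of 17.6% of all genes tested, more than any other library, and whether this moved the T cell genes was not tested.

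Cd5, which dampens the signal of the receptor, was higher at 30 months in 7 of 8 mice, the opposite direction to Trdc. It was at 4.96 to 7.28 CPM at 24 months (median 6.36) and at 6.397 to 10.4 CPM at 30 months (median 7.06). The exception was mouse 43, at 7.28 and then 6.44 CPM. The ages overlapped, with a log2 fold change of 0.27 (SE 0.113, edgeR adjusted p = 0.387, exact sign-flip p = 0.0312). Without mouse 50 the change was 0.19 (edgeR adjusted p = 0.503, exact sign-flip p = 0.0625).

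Cd2, whose product binds CD48 on other cells, and the kinase gene Lck had 1 library far above the rest. Cd2 was at 1.43 to 2.45 CPM at 24 months (median 2.02) and at 1.42 to 3.41 CPM in the 30-month libraries other than that of mouse 50, which was at 17.9 CPM. Lck was at 3.61 to 4.89 CPM at 24 months (median 4.43) and at 3.38 to 4.88 CPM in the same 7 libraries, against 38.7 CPM in mouse 50. Among the other mice Cd2 changed most in mouse 21, from 1.498 to 3.41 CPM. The log2 fold changes of Cd2 and Lck were 0.37 and 0.33 with all mice (edgeR adjusted p = 0.699 and 0.698) and 0.02 and 0.00 without mouse 50 (adjusted p = 0.979 and 0.995).

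The coreceptor genes differed in level. Cd4 was at 6.16 to 13.04 CPM at 24 months (median 9.24) and at 3.94 to 11.9 CPM in the 30-month libraries other than that of mouse 50, with 38.4 CPM in mouse 50. The Cd4 level was lower at 30 months in 5 of 8 mice. Its log2 fold change was -0.13 (edgeR adjusted p = 0.907) and -0.46 without mouse 50 (adjusted p = 0.424). Cd8a was close to the limit of the assay, with 1 to 25 reads in 15 libraries, or 0.0322 to 0.706 CPM. The 30-month library of mouse 50 held 966 Cd8a reads, or 30.4 CPM. The Cd8a log2 fold change of 1.01 (SE 0.919, edgeR adjusted p = 0.668) became -0.12 without this mouse (adjusted p = 0.941).

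No gene of the 10 passed an adjusted p of 0.05, nor did any other gene, with 0% of the 21526 genes called by edgeR. Of the 10, Trdc (lower) and Cd5 (higher) had an unadjusted edgeR p under 0.05, 2 genes in all, against 12% of all genes. The median log2 fold change was 0.10 over the 10 genes and 0.01 over all genes. Without mouse 50 it was -0.12 over the 10 genes and 0.00 over all genes, and Cd4 was the only gene of the 10 with an unadjusted edgeR p under 0.05, against 11.7% of all genes.

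To ask whether Trdc moved apart from the rest of the T cell genes, the change of each other gene was taken from that of Trdc within each mouse. All 9 differences share the Trdc values and are not independent. The mean difference was below 0 for all 9 genes with all mice, and without mouse 50 for 8 of them, Cd4 being above 0. It was -0.60 ± 0.55 for Cd5 (SD, n = 8 mice, log2 scale), with all 8 mice below 0 (exact sign-flip p = 0.00781). Cd3d, Cd247 and Lck had mean differences of -0.49 ± 0.86, -0.37 ± 0.50 and -0.70 ± 1.11, each with 7 of 8 mice below 0 (exact sign-flip p = 0.0156 each). After Benjamini-Hochberg adjustment over the 9 differences these 4 genes had p = 0.0352 (exact sign-flip test). Cd3g was at -0.32 ± 0.47 with 6 mice below 0 (exact p = 0.0547, adjusted p = 0.0984). Cd3e at -0.31 ± 0.63, Cd2 at -0.71 ± 1.18, Cd4 at -0.26 ± 1.25 and Cd8a at -0.87 ± 2.26 had exact p between 0.109 and 0.688. Without mouse 50 these 5 differences were -0.18 for Cd3g, -0.14 for Cd3e, -0.35 for Cd2, 0.13 for Cd4 and -0.19 for Cd8a (exact p between 0.109 and 0.766). For Trdc against Cd3d the ratio of levels was 1.98 ± 0.289 (log2) at 24 months and 1.48 ± 0.936 at 30 months. Mouse 50 gave the lowest difference for 8 of these 9 genes, and mouse 29 for Cd5. Without mouse 50 the 4 called differences were -0.20 (Cd3d), -0.22 (Cd247), -0.51 (Cd5) and -0.32 (Lck), with exact p = 0.0312, 0.0312, 0.0156 and 0.0312, and an adjusted p of 0.0703 for each. An adjusted p of 0.0703 was also reached when any other mouse was left out. Since 7 mice allow no exact sign-flip p below 0.0156, this loss cannot show that the 4 calls rest on any 1 mouse.

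**Figure D2:**
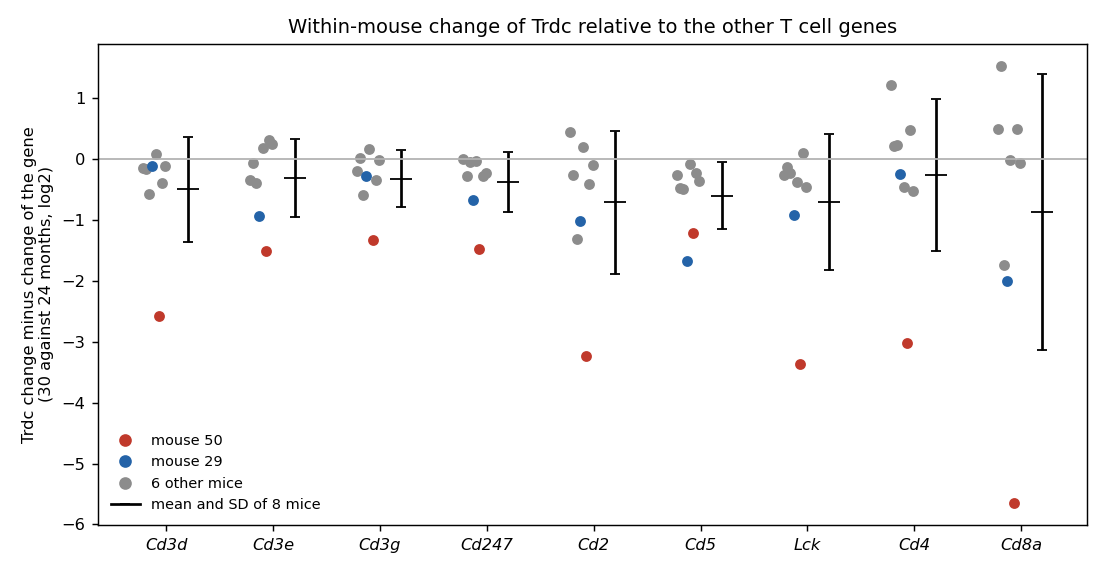
Within-mouse change of Trdc minus that of each other T cell gene (30 against 24 months, log2), with 1 point per mouse and the mean and SD of 8 mice beside them. All 8 points lie below 0 for Cd5, and mouse 50 (red) is the lowest point for the 8 other genes.

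Trdc was next set against the genes of the same receptor. Of 16 gamma-delta genes, Trdc included, 14 were tested, 0 passed after adjustment by edgeR, and 3 were lower and 1 higher at an unadjusted p under 0.05 (7.18% and 4.86% of all genes). Of the 14 log2 fold changes 9 were below 0 and 5 above, with a median of -0.09 (-0.14 without mouse 50), against 0.01 over all genes (0.00 without mouse 50). Trdv4, the delta variable segment of dendritic epidermal T cells, was lower in all 8 mice. It was at 3.15 to 5.74 CPM at 24 months (median 4.84) and at 2.48 to 4.63 CPM at 30 months (median 3.23), with overlap between the ages, and in mouse 50 both libraries were at 4.63 CPM, apart only past the third digit. Its log2 fold change was -0.48 (edgeR adjusted p = 0.279, exact sign-flip p = 0.00781) and -0.55 without mouse 50. Tcrg-V5, the gamma variable segment of the same receptor, was lower in 7 of 8 mice (log2 fold change -0.44, edgeR adjusted p = 0.319). The gamma constant genes had smaller changes: -0.18 for Tcrg-C1, -0.09 for Tcrg-C2, -0.06 for Tcrg-C3 and -0.29 for Tcrg-C4 (edgeR adjusted p between 0.448 and 0.893). Tcrg-C1, Tcrg-C2 and Tcrg-C3 share 25.4% to 36.2% of their 50-base windows and their split is uncertain. The chemokine gene Xcl1, which dendritic epidermal T cells make, had the lowest fold change of the list at -0.90 (edgeR adjusted p = 0.449). Il17f, a cytokine gene of the dermal gamma-delta cells, was higher in all 8 mice, from 0.143 to 1.01 CPM at 24 months to 0.483 to 1.03 CPM at 30 months, at 30 reads or fewer per library (log2 fold change 1.05, edgeR adjusted p = 0.259). The others above 0 were Sox13 at 0.11, a factor gene of interleukin 17-making gamma-delta cells, Cd163l1 at 0.08, the interleukin 23 receptor gene Il23r at 0.05 and Tcrg-V4 at 0.05 (edgeR adjusted p between 0.698 and 0.974). Without mouse 50 they were at 0.067 for Sox13, -0.0075 for Cd163l1, 0.074 for Il23r and 0.00067 for Tcrg-V4.

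Most Skint genes of keratinocytes were lower at 30 months, as Trdc was. All 11 were tested, 8 had an unadjusted edgeR p under 0.05, all in the lower direction (7.18% of all genes), and 4 (Skint3, Skint6, Skint8 and Skint9) were lower in all 8 mice (1.69% of all genes). The median log2 fold change over the 11 was -0.53, against 0.01 over all genes, and 0 of the 11 passed after adjustment. Skint3 was at 57.5 to 77.0 CPM at 24 months and at 31.7 to 64.1 CPM at 30 months (log2 fold change -0.65, edgeR adjusted p = 0.141). Skint9, the most abundant, was at 124 to 156 CPM and then at 71.1 to 140 CPM (log2 fold change -0.54, edgeR adjusted p = 0.195). Skint1 itself was at 26.1 to 46.3 CPM and then at 22.2 to 37.4 CPM, lower in 4 mice and higher in 4 (log2 fold change 0.00, edgeR adjusted p = 0.998, and -0.05 without mouse 50). The Skint transcripts shared at most 9.68% of their windows with other genes. Their part in the lower Trdc level was not tested.

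**Figure D3:**
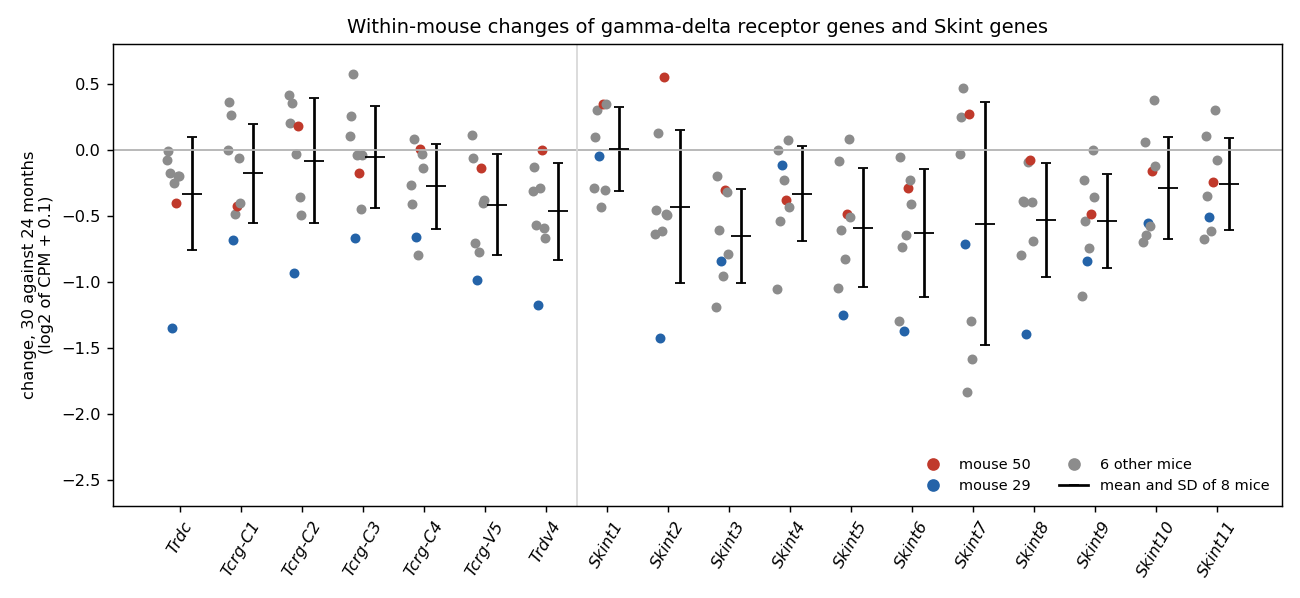
Within-mouse change (30 against 24 months, log2 of CPM + 0.1) of Trdc, the gamma and delta receptor genes and the 11 Skint genes, with 1 point per mouse and the mean and SD of 8 mice beside them. Trdc, Trdv4, Skint3, Skint6, Skint8 and Skint9 lie below 0 in all 8 mice, while Skint1 is spread on both sides of 0.

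In the 30-month library of mouse 50 the alpha-beta genes were high and the gamma-delta genes were not. Trac was at 17.95 CPM, against 0.821 to 2.00 CPM in the other 15 libraries. Cd8b1, the partner of Cd8a in the CD8 coreceptor, was at 23.0 CPM against at most 0.768 CPM elsewhere. Of the 12 alpha-beta genes, 10 were highest in this library (12% of all genes) and 10 were over 2-fold above every other library (2.31% of all genes). Of the 16 gamma-delta genes, 0 were highest there (12% of all genes), and Trdc at 13.98 CPM was below the lowest 24-month library. Among the 30-month libraries alone, Trdv4 (4.63 CPM) and Tcrg-V5 (3.24 CPM) were highest in this one, above 4.35 and 2.05 CPM in the next.

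Genes of receptor signalling, cytotoxic cells and circulating cells were also highest in this library in most cases. Of 18 signalling genes 16 were highest in it (12% of all genes). Zap70, the kinase that acts after Lck, was at 14.02 CPM against at most 6.21 CPM elsewhere. Of 14 tissue-resident and cytotoxic genes 10 were highest (12% of all genes). Among them were the granzyme gene Gzmb at 30.7 CPM against at most 2.82 CPM, and the chemokine gene Ccl5 at 75.2 CPM against at most 4.44 CPM. The transcription factor gene Eomes of cytotoxic cells was at 14.9 CPM against at most 0.555 CPM. The homing receptor gene Ccr7 of circulating T cells was at 10.96 CPM, against at most 1.71 CPM. Foxp3 of regulatory T cells was at 1.17 CPM against at most 1.04 CPM. Gata3, which keratinocytes express too, was at its lowest level of all libraries (80.8 CPM).

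Markers of leukocytes, macrophages and fibroblasts were high in this library as well, and the keratinocyte and cartilage sums were not. The sum of 6 pan-leukocyte genes was 958 CPM, against 175 to 337 CPM in the other libraries, and Ptprc, which encodes CD45, was at 202 CPM against at most 53.0 CPM. The sum of 9 macrophage markers was 2075 CPM against at most 1148 CPM, with 8 of 9 highest there (12% of all genes). That of 5 fibroblast markers was 10569 CPM against at most 6045 CPM. Among 8 dendritic and Langerhans cell markers 5 were highest there (12% of all genes). The sum of 6 keratinocyte markers was 18157 CPM, against 25299 CPM in the same mouse at 24 months. That of 5 cartilage markers was 95.5 CPM, against 142.9 CPM at 24 months. In neither of these lists was a marker highest in this library. Krt1 alone of the 6 keratinocyte markers was above its 24-month level in this mouse, at 2078 against 418 CPM. Among 6 B cell markers Cd79b alone was highest there, at 6.02 CPM. Among markers of natural killer cells, which share the cytotoxic genes, Klrb1c was at 8.22 CPM against at most 0.393 CPM, and Ncr1 had 0 reads there and at most 4 in any other library. Their part in the level of the T cell genes was not tested.

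**Figure D4:**
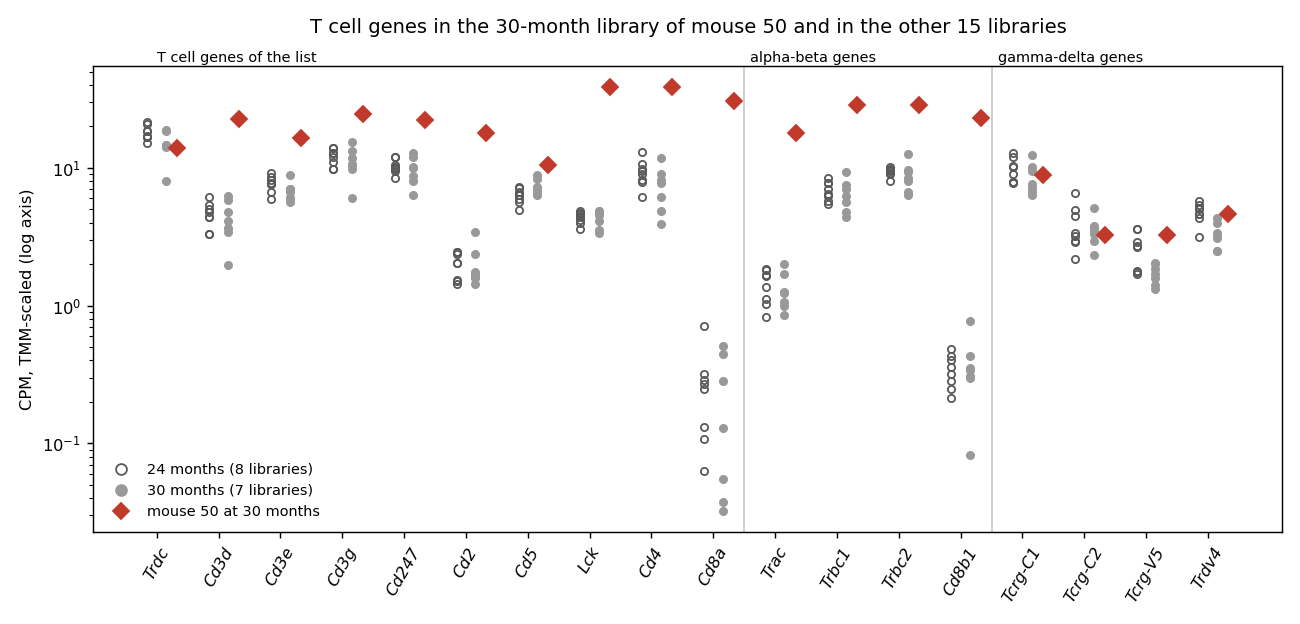
Level (CPM, log axis) of the 10 T cell genes, 4 further alpha-beta genes and 4 further gamma-delta genes in the 30-month library of mouse 50 (red diamond) and in the other 15 libraries (open circles 24 months, filled circles 30 months). Cd8a stands at 30.4 CPM against at most 0.706 CPM elsewhere, while Trdc at 13.98 CPM lies among the other libraries.

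Lists of related T cell genes were read for the change with age in all mice. In each list 0 genes passed the adjusted edgeR test. Of 11 alpha-beta genes tested 0 had an unadjusted p under 0.05. Without mouse 50 there were 2 of 11 (11.7% of all genes), both lower, Cd4 and the costimulatory receptor gene Cd27 (log2 fold change -0.65, edgeR adjusted p = 0.289). The alpha-beta list had Cd6, a relative of Cd5, at its upper end with a log2 fold change of 1.17 and 7 of 8 mice higher (edgeR adjusted p = 0.469), and of 0.65 without mouse 50 (adjusted p = 0.458). Zbtb7b, the factor gene of CD4 cells and the most abundant of the list per length, was at -0.10 (adjusted p = 0.614). Of 17 signalling genes tested 0 had an unadjusted p under 0.05 (without mouse 50 there was 1, the adaptor gene Lcp2 at -0.37), and they ran from Trat1 at -0.28 to Prkcq at 0.63. Among these the most abundant per length was Plcg1, at 0.04 (0.07 without mouse 50). Of 12 T cell transcription factors 2 had an unadjusted p under 0.05, close to the 12% of all genes, Eomes, whose value rests on mouse 50, and Rora, which other skin cells make as well, at -0.25 (edgeR adjusted p = 0.341), which alone had such a p without mouse 50.

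Of 12 regulatory and checkpoint genes 3 were higher and 1 lower at an unadjusted p under 0.05 (4.86% and 7.18% of all genes), and without mouse 50 there were 2 higher and 3 lower. Lag3, an inhibitory receptor gene, was higher in all 8 mice, from 5.14 to 8.13 CPM at 24 months to 6.19 to 13.2 CPM at 30 months (log2 fold change 0.48, edgeR adjusted p = 0.268) and at 0.36 without mouse 50. Tigit, another inhibitory receptor gene, was at most at 0.269 CPM at 24 months and reached 2.14 CPM in mouse 50 at 30 months (log2 fold change 1.88, edgeR adjusted p = 0.308). Without mouse 50 its log2 fold change was 1.21. Ctla4 was at 0.62 (edgeR adjusted p = 0.375) and at 0.41 without mouse 50, and Tnfrsf18 was lower in 7 of 8 mice at -0.36 (adjusted p = 0.327). Tnfrsf4, the most abundant per length, was at 0.16 (adjusted p = 0.457).

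Of 12 tissue-resident and cytotoxic genes tested 1 had an unadjusted p under 0.05, no larger a share than the 12% of all genes. This was Ccr10, a skin homing receptor gene, which was lower in all 8 mice (log2 fold change -0.75, edgeR adjusted p = 0.286). Gzmc was at the lower end at -0.80 and Ccl5 at the upper end at 1.27 (adjusted p = 0.438 and 0.527 by edgeR), where Ccl5 was at 0.61 without mouse 50. Nkg7, the most abundant per length, was at 0.20, and at -0.09 without mouse 50. All 5 genes of recirculating T cells had a log2 fold change above 0, and 3 had an unadjusted p under 0.05, all higher (4.86% of all genes). Ccr7 was higher in all 8 mice, from 0.321 to 0.888 CPM at 24 months to 0.419 to 10.96 CPM at 30 months (log2 fold change 1.57, edgeR adjusted p = 0.279). Without mouse 50 its log2 fold change was 1.09 (edgeR adjusted p = 0.213). Klf2 and S1pr1, which blood vessel cells express too, were at 0.51 and 0.68 (edgeR adjusted p = 0.256 and 0.279), and Il7r, the receptor gene for interleukin 7, was lowest of the list at 0.20, and at -0.05 without mouse 50. Of 9 cytokine genes tested 2 had an unadjusted p under 0.05 (12% of all genes), Ifng, which was higher and rests on mouse 50, and Tnfsf11, which was lower at -0.72 (edgeR adjusted p = 0.316), while the interleukin 2 gene Il2 was at 0.09. Without mouse 50, 2 of 7 cytokine genes tested had such a p, both lower, Tnfsf11 and Tnf (log2 fold change -0.57).

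Markers of other immune cells were read beside Trdc, and none passed the adjusted edgeR test. Of 8 dendritic and Langerhans cell markers 2 were lower and 1 higher at an unadjusted p under 0.05 (7.18% and 4.86% of all genes), and without mouse 50 there were 4 lower and 1 higher (11.7% of all genes in either direction). Of 9 macrophage markers 0 had such a p, and 8 had a log2 fold change above 0 (median 0.26, and 0.22 without mouse 50). Of 4 B cell markers tested 1 was lower at such a p (7.18% of all genes), and 1 without mouse 50. Cd207, which encodes langerin of the Langerhans cells that share the epidermis with the gamma-delta cells, was lower in 7 of 8 mice (log2 fold change -0.61, edgeR adjusted p = 0.279). Cd209a of dermal dendritic cells was at -1.09 and the chemokine gene Ccl22, which draws CCR4 T cells, at 0.91 (edgeR adjusted p = 0.222 and 0.282). The 6 pan-leukocyte markers had a median log2 fold change of 0.14, with 4 above 0, and of -0.15 without mouse 50. With all mice 0 of the 6 had an unadjusted edgeR p under 0.05. Without mouse 50 there were 2, both lower (11.7% of all genes in either direction). The lowest of the 6, Ptprc, was lower in 7 of 8 mice, with -0.11 in all mice and -0.40 without mouse 50 (edgeR adjusted p = 0.236 without it). The sum of the 16 gamma-delta genes exceeded its 24-month value in 1 mouse and that of the 11 Skint genes in 0. The gamma-delta sum holds Trdc itself and is not a separate reading. In mouse 50 it went from 62.7 to 61.4 CPM, and Trdc alone from 18.6 to 13.98 CPM. The like sum of the alpha-beta genes is mostly Zbtb7b and is not read here. Trac was higher in 4 and Trbc2 in 5 of 8 mice, mouse 50 among them, with log2 fold changes of 0.31 and 0.08 in all mice and -0.13 for both without mouse 50. Markers of other tissues had median log2 fold changes of -0.49 for cartilage, -0.47 for fibroblasts, 1.001 for skeletal muscle and -0.09 for keratinocytes (-0.02 without mouse 50). The first 3 are larger in size than the change of Trdc, and that of keratinocytes is smaller. At an unadjusted edgeR p under 0.05, 3 of 4 cartilage genes were lower (7.18% of all genes), as were 0 of 5 fibroblast, 0 of 5 muscle and 1 of 6 keratinocyte genes, and 1 keratinocyte gene was higher (4.86% of all genes). Without mouse 50, 0 keratinocyte genes were lower and 1 higher. Without mouse 50 the fibroblast median was -0.75 and 3 of 5 genes had such a p (11.7% of all genes). Whether the make-up of the biopsies bears on the T cell genes was not tested.

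Levels of a mouse at 24 months did not carry over to 30 months in a way that these 8 animals could show. Of the 10 genes, the correlation of both levels over the mice ran from r = -0.65 for Cd4 to r = 0.73 for Cd8a, which were -0.13 and 0.18 without mouse 50. Cd8a had an exact permutation p of 0.0482, which was 0.446 after adjustment over the 10 genes, with a Spearman rho of 0.29 (exact permutation p = 0.501). Its r was -0.18 when the 2 mice farthest from the median were left out. For Trdc r was -0.11 and rho 0.10 (exact permutation p = 0.792 and 0.840), and r was -0.64 without the 2 farthest mice (exact p = 0.154). Without mouse 29 alone it was 0.75 (exact permutation test, adjusted p = 0.346), so its sign rests on that mouse.

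The change of Trdc was also set against that of each other gene over the mice. With 8 mice r lay between -0.25 for Cd8a and 0.61 for Cd3g, and 0 of 9 passed (lowest exact permutation p = 0.177, adjusted p = 0.716). For Cd3g rho was 0.21 (exact permutation p = 0.619), and r was 0.29 without mice 29 and 50, the 2 mice farthest from the median Trdc change (exact p = 0.589). For Cd8a r was -0.83 without mouse 29 alone. Without mouse 50 alone r ran from -0.43 for Cd8a to 0.92 for Cd3d. It was 0.92 for Cd3d, 0.86 for Cd3g and 0.89 for Cd247, and without mouse 29 alone it was -0.66, -0.49 and -0.55. Without both mice it was 0.39, 0.29 and 0.67, so that the sign turned when mouse 29 alone was left out and not when both were.

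Over the 16 libraries, which come in pairs from the same mice, the levels most like that of Trdc were those of Spef1 (Pearson r of log2 CPM 0.94), Npl (0.93), Serpinb3b (0.92), Serpinb3c (0.90) and Gm10639 (0.89). Those most like Cd3e were Prf1 (0.93), Il2rb (0.92), Nkg7 (0.91), Cd72 (0.91) and Ctsw (0.91), of which Prf1, Nkg7 and Ctsw belong to cytotoxic cells. Without mouse 50 those most like Cd3e were Col6a6 (0.87), Palld (0.87), Gm16325 (0.85), Prf1 (0.84) and Gm14470 (0.84), so that Prf1 alone of the 5 remained. Among the other 9 genes, Cd3g was nearest to Trdc at r = 0.53 and Cd5 farthest at r = -0.51. Over the 14 libraries without mouse 50, r with Trdc was 0.86 for Cd3g, 0.83 for Cd247 and -0.52 for Cd5. In contrast, r of Cd3e with Lck was 0.86 over all libraries and 0.50 without mouse 50. These values are descriptions, with depth and pairs shared between points. The 30-month library of mouse 29 was the lowest for Trdc, at 8.07 CPM against at least 13.98 CPM elsewhere. How far the r values with Trdc rest on that library was not tested.

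**Figure D5:**
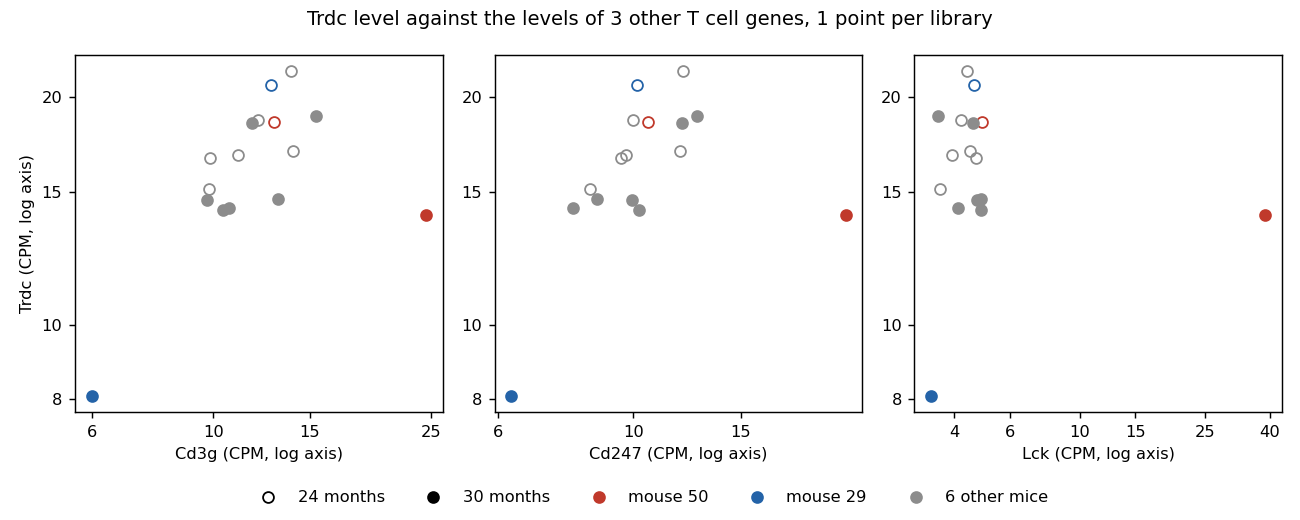
Trdc level against that of Cd3g, Cd247 and Lck (CPM, log axes), with 1 point per library (open 24 months, filled 30 months, mouse 50 red, mouse 29 blue). Between Trdc and Cd3g r is 0.53 over the 16 libraries and 0.86 over the 14 without mouse 50, with the low library of mouse 29 among them, and the 30-month library of mouse 50 lies off to the right at 24.4 CPM of Cd3g and 38.7 CPM of Lck.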

How the data were processed

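RNA was sequenced from ear biopsies (TruSeq RNA v2, single-end reads of 50 nt). Per the labels and the paper's methods, the authors aligned the reads with TopHat to GRCm38 (mm10) and deposited raw counts per gene. The submitters' processing notes name CASAVA 1.8.4, TopHat2 2.1.0 and HTSeq 0.6.1p1. Whether counting used strand is not given in the sources used here. The 5 summary lines that name no gene (18.7% to 21.1% of a library's reads) were left out.

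Symbols and exon lengths came from GENCODE M21 (45143 of 45706 identifiers matched). Counts were scaled by TMM to CPM, divided by exon length for RPKM, and tested with edgeR 4.0.16 in R 4.3.3 (filterByExpr, quasi-likelihood, a term per mouse, Benjamini-Hochberg over 21526 genes, threshold 0.05). Single values used two-sided exact sign-flip or permutation tests of log2(CPM + 0.1) in Python 3.11.15 with scipy 1.17.1. The paired fit follows the study's sample sheet, where equal numbers are 1 animal. As a check, deviations from the age means had a median correlation of -0.03 for libraries of 1 animal and -0.02 for those of 2 animals. The labels do not say whether libraries were made in batches, and p-values measure the spread between these 8 mice. The 8 animals of an age differed by more than counting noise in every pair of libraries.

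On counts simulated for this comparison (21269 genes), edgeR recovered 66 of 100 genes changed 2-fold and 94 of 100 changed 4-fold, with 16 false calls. The genes and lists were chosen with earlier results of these data known. Named beside the 10 genes were, per T cell list, the most abundant gene per length, the largest and smallest fold change, and the 5 genes most correlated with Trdc and Cd3e, and further genes were picked after their values were seen. Alternatives were no block, DESeq2 size factors, the DESeq2 1.42.0 Wald test, no filter, a pseudocount of 1, plain library sizes, and each mouse left out.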

Additional observations from a re-analysis of the deposited data

Results flagged for a closer look

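A mouse far from the other 7 was looked for in the levels and changes of the 10 genes, by the gap to the next mouse as a share of the whole range, against the 95% limit of Dixon's test for 8 values. Of 30 sets of values 10 had such a mouse, where chance alone gives about 1.5. In 8 of the 10 it was mouse 50 on the high side. For levels at 30 months the share was 0.535 for Cd3d, 0.577 for Cd3e, 0.662 for Cd2, 0.852 for Lck and 0.718 for Cd8a. For changes from 24 to 30 months it was 0.796 for Lck, 0.586 for Cd4 and 0.542 for Cd8a. In the other 2 sets it was mouse 29 on the low side of Trdc, with 0.646 for the level at 30 months and 0.705 for the change.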

How the results depend on the processing

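The count of the 10 T cell genes past an adjusted p of 0.05 was 0 in every edgeR fit and in the DESeq2 Wald test. The count was also 0 by the exact sign-flip test, but that test could call no gene here and is no separate check. Trdc had the smallest exact sign-flip p that these mice allow, 0.00781, and its adjusted p over all genes was 0.282 by that test. Over all genes, edgeR called 0 with 2593 at an unadjusted p under 0.05, the DESeq2 Wald test called 228, and edgeR without the block on the mouse called 3. Without the block the log2 fold changes of Cd3e, Cd3g and Cd4 turned to 0.055, 0.076 and 0.28, and those of Cd3d, Cd247, Cd2, Lck and Cd8a were 0.52, 0.13, 1.01, 0.99 and 3.87. The DESeq2 Wald value of Cd8a was 0.27.

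When 1 mouse at a time was left out, log2 fold changes ranged from -0.38 to -0.19 for Trdc, from -0.12 to 0.36 for Cd3d, from -0.19 to 0.043 for Cd3e, from -0.14 to 0.14 for Cd3g, from -0.11 to 0.15 for Cd247, from -0.46 to 0.062 for Cd4 and from -0.12 to 1.42 for Cd8a. The number of called differences between Trdc and another gene was 4 with all mice and 0 in each of these fits. The differences ranged from -0.58 to -0.20 for Cd3d, from -0.43 to -0.22 for Cd247, from -0.67 to -0.44 for Cd5, from -0.82 to -0.32 for Lck and from -0.47 to 0.13 for Cd4. Part of this loss is by construction, since 7 mice allow no exact sign-flip p below 0.0156.

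The correlation of levels at both ages ranged from -0.54 to 0.75 for Trdc, from -0.073 to 0.34 for Cd3g, from -0.25 to 0.44 for Cd2, from -0.039 to 0.37 for Cd5 and from -0.076 to 0.58 for Lck. That of changes with Trdc ranged from -0.66 to 0.92 for Cd3d, from -0.38 to 0.42 for Cd3e, from -0.49 to 0.86 for Cd3g, from -0.55 to 0.89 for Cd247, from -0.66 to 0.27 for Cd2, from -0.73 to 0.75 for Lck and from -0.81 to 0.39 for Cd4. For Cd8a it ranged from -0.83 to -0.15. The causes were not tested. A pseudocount of 1 and plain library sizes changed no call or direction. Depth limits the genes with few reads, such as Cd8a, Il17f, Tigit, Ifng and Ncr1.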
